A study of Mus musculus with 2 samples.

Results

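The T-cell receptor beta locus of the mouse lies on chromosome 6, from base 40891229 to base 41558452 of the GRCm38 (mm10) build, a span of 667.224 kb. Its members were taken as all genes whose GENCODE M21 symbol starts with Trbv, Trbd, Trbj or Trbc, pseudogene segments included. These are 53 genes: 35 variable (V), 2 diversity (D), 14 joining (J) and 2 constant (C) genes. Of them 52 were found by gene identifier among the 43346 genes of the deposited gene tables, and 36 of these, 34 V and 2 C genes, had an effective length above 0 and could be measured.

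RNA sequencing of whole thymus, labelled as total RNA, was done on pups of strain B6NCrl at postnatal day 0, and the study has no treatment, genotype or second tissue. Both thymus lobes of each of 2 pups of the same pregnant female gave 1 library per pup, so there is 1 group with n = 2 and nothing can be tested between groups. Each library was made from 10 ng of RNA with spike-in RNA added, and held 39045680 (replicate 1) and 41576341 (replicate 2) expected counts, which are estimated read counts that need not be whole. Levels are TPM, a relative abundance per transcript length, and a gene is called detected at 1 TPM or more in both libraries. All 9 T-lineage markers and all 6 thymic epithelial markers were detected, as were 4 of 4 macrophage markers, 2 of 5 B-lineage markers (Cd79b at 31.73 and 32.89 TPM led them, and Pax5 was at 0 and 0.18) and 2 of 4 NK-cell markers (Klra8 had 0 counts). As this is whole tissue, fewer cells of a type and less RNA per cell cannot be told apart.

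Developing T cells build the receptor beta chain by cutting and joining DNA: a D segment is joined to a J segment, and a V segment is then joined to that pair. The joined V-D-J exon is spliced to the exons of a constant gene, and the resulting chain is first paired with the pre-T alpha protein and later with the receptor alpha chain. The locus has a long array of V segments, then a pair of D-J-C clusters, with Trbd1, the first J group and Trbc1 in one and Trbd2, the second J group and Trbc2 in the other, and last a V segment in the opposite orientation, Trbv31. Unrearranged V segments can also be transcribed from their own promoters. The levels below belong to the separate germline transcripts of the annotation, and a rearranged transcript has no entry of its own.

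The 3′ end of a V segment is the part that meets the D or J segment. It is shown here because V genes and V pseudogenes differ there in sequence. The levels did not choose this part, but they entered the choice of the segments shown. The last 36 bases of 7 V transcripts follow, 5′ to 3′ as in the GENCODE M21 transcripts, with the motif TGTGCNAGC in capitals where it is present. Its first codon is that of the conserved cysteine at which the third complementarity-determining region begins.
Trbv13-2: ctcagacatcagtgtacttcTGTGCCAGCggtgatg
Trbv5: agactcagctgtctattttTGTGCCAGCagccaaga
Trbv21: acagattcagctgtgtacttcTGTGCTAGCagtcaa
Trbv26: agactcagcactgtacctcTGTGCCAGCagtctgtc
Trbv24: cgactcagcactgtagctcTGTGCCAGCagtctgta
Trbv22: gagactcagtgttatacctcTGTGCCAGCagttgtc
Trbv11: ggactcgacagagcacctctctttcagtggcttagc
On the plus strand of GRCm38 these lie, in that order, at chr6:41121797-41121832, chr6:41062768-41062803, chr6:41203007-41203042, chr6:41227958-41227993, chr6:41218522-41218557, chr6:41212499-41212534 and chr6:41107268-41107303. The first and second are the highest V genes, Trbv21 is the lowest V gene, Trbv26 is a V gene whose end is close to that of Trbv24, and the last 3 are pseudogenes at descending levels. So picked, they do not show how the motif relates to level. Among those not shown, the V gene Trbv20 (257.78 and 258.49 TPM) lacks the motif, and the pseudogene Trbv18, with 0 counts, has it.

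The motif, searched on the sense strand in the last 30 bases, was present in 17 of 22 V genes and in 4 of 13 V pseudogenes. Of the 141722 annotated transcripts of at least that length, V transcripts included, 0.0466% had it. The V genes without it were Trbv1, Trbv20, Trbv23, Trbv30 and Trbv31. Lacking this exact motif need not mean lacking the cysteine codon. In all 17 V genes with the motif the last exon held 0 stop codons upstream in its reading frame. In all 4 pseudogenes with the motif there was at least 1. All 22 V genes had 2 exons, the first of which encodes the leader peptide, and in 21 of them the first exon was annotated as coding, the exception being Trbv21. The transcript with the higher mean level was used where a segment has more than 1. Only Trbv24 and Trbv12-3 among the 13 pseudogenes had 2 exons, and 11 had 1. Stop codons and exons may themselves have entered the annotation of a segment as a pseudogene. These counts therefore describe the annotated classes and are no test of them.

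The joined segments themselves are too short to be measured. The D segments are Trbd1, 12 bases at chr6:41533201-41533212, and Trbd2, 14 bases at chr6:41542163-41542176. The annotated transcripts of the 14 J segments run from 45 to 54 bases. They are shown with 4 J segments, in which capitals mark TTTGGNNNNGG or TTCGGNNNNGG, the codons of the conserved phenylalanine and the glycines after it.
Trbd1: gggacagggggc
Trbd2: gggactgggggggc
Trbj1-1: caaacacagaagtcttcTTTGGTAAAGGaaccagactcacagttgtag
Trbj2-7: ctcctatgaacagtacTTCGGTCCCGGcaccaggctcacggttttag
Trbj1-6: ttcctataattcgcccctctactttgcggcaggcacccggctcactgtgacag
Trbj2-6: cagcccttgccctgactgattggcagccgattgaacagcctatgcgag
These J segments lie at chr6:41533864-41533911, chr6:41543810-41543856, chr6:41535554-41535606 and chr6:41543598-41543645, all on the plus strand. One of the motifs was found on the sense strand in 11 of 14 J segments, and not in Trbj1-6, Trbj1-7 and Trbj2-6, the last of which is annotated as a pseudogene. Of 141654 annotated transcripts of at least 53 bases, 0.330% hold one in as many last bases. In the deposited tables the effective length, the number of places where a read can start, was 99 below the transcript length. All 16 D and J segments therefore had an effective length of 0 and were listed at 0, which is a limit of the measurement and says nothing of their level.

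Transcripts of the locus were among the most abundant of the newborn thymus, and most measured members fell in 3 ranges of level. The C genes were at 3000.76 TPM or more, 19 of 21 measured V genes between 50 and 400 TPM, and 11 of 13 V pseudogenes below 1 TPM. Between 1 and 50 TPM in mean level were the V genes Trbv30 and Trbv21 and the pseudogenes Trbv24 and Trbv22. The members' sum was 1.17% of all TPM in replicate 1 and 1.18% in replicate 2. In counts it was 0.451% (95% Wilson interval 0.449 to 0.454) and 0.463% (0.461 to 0.465). Of the 36 measurable members 24 were detected. The share was 32.2% of all 43346 genes, and 33.9% of the 41128 genes with an effective length above 0, which is the base that matches these members. The detected members were 20 of 21 V genes, 2 of 13 V pseudogenes and both C genes.

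**Figure D1:**
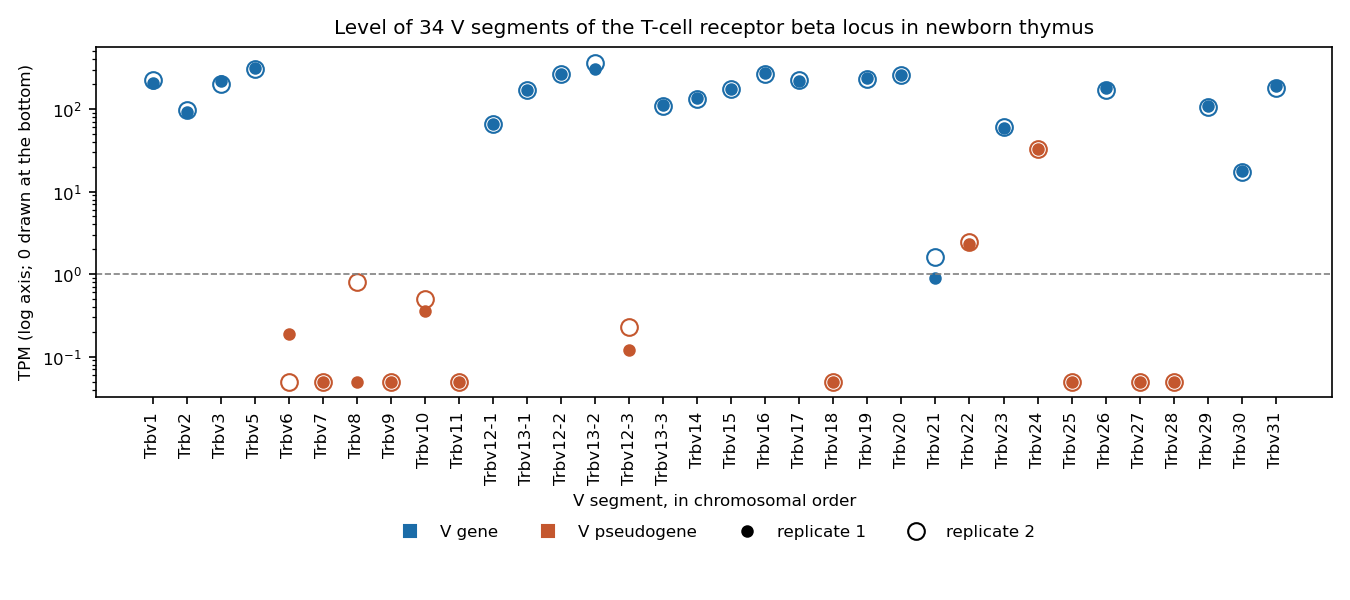
Level of the 34 measurable V segments in chromosomal order, in TPM on a log axis; blue marks V genes, orange V pseudogenes, filled circles replicate 1 and open circles replicate 2, the dashed line is 1 TPM, and values of 0 are drawn at the bottom. Filled and open circles nearly coincide for the detected segments, and of the V genes only Trbv21 is near the dashed line.

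V genes, which encode the antigen-contacting part of the chain, had a median of 180.44 TPM in replicate 1 and 174.19 in replicate 2, or 177 ± 4.42 (SD, n = 2). The median of all genes was 0.08 TPM, and that of detected genes 15.0 TPM. The level was spread widely over the array: 16 V genes reached 100 TPM in both and 9 reached 200. The detected V segments had nearly the same order in both pups, with a Spearman correlation of 0.993 across 22 segments, which share the 2 libraries and are not replicates.

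Trbv13-2, a member of the triplicated Trbv12 and Trbv13 cassettes, had the highest mean level, with 302.24 TPM in replicate 1 and 361.76 in replicate 2. Trbv5 followed with 311.96 and 307.67 TPM. The values of these V genes overlapped, so their order could not be told. Trbv16 had 275.48 and 262.89 TPM and Trbv12-2 had 268.44 and 267.70, which also overlapped. Trbv20 (257.78 and 258.49), Trbv19 (238.03 and 231.58) and Trbv17 (218.76 and 223.78 TPM) came next, each clear of its neighbour above. Trbv1, the V gene farthest from the D-J-C clusters, had 206.34 and 227.32 TPM, a range that takes in both values of Trbv17 and overlaps that of Trbv3 (216.70 and 202.52). Trbv31 had 190.32 and 181.94 TPM and was the tenth in mean level. Over all 26 neighbouring pairs in the order of V segments with a count, the values were apart in 18 and overlapped in 8.

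No V gene dominated. The highest took 8.57% of the summed V level in replicate 1 (Trbv5) and 9.86% in replicate 2 (Trbv13-2). The 5 highest took 38.9% and 39.7%, a mean of 39.3 ± 0.606% (SD, n = 2), and the 10 highest 68.3% and 68.8%. At the low end of the detected V genes, Trbv30 had 17.96 and 17.18 TPM, Trbv23 had 58.54 and 61.21, Trbv12-1 had 65.48 and 65.13, and Trbv2 had 92.54 and 97.22. Trbv21 was the V gene that was not detected, with 0.90 and 1.61 TPM from 6 and 13 counts. Its end shown above carries the motif with no stop before it, and it is the V gene whose first exon was not annotated as coding in the transcript used.

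Close relatives differed in level. Trbv12-1 and Trbv12-2 were identical at 89.1% of aligned bases of their last exon, and the values of Trbv12-2, 268.44 and 267.70 TPM, were both above those of Trbv12-1, 65.48 and 65.13 TPM. Trbv13-2 and Trbv13-3 were identical at 91.8%, and Trbv13-3 had 111.16 and 109.28 TPM, below both values of Trbv13-2. Trbv13-1, at 88.8% identity to Trbv13-2, had 169.17 and 169.03 TPM. No stretch of 100 bases, the read length that the effective lengths imply, is shared between these V transcripts. Of the 35 V transcripts 32 share no such stretch with a GENCODE M21 transcript of another gene. The deposited levels rest on GENCODE M4, and 42462 of the 43346 genes of its tables are in M21. Transcripts found only in M4 were not searched.

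The exceptions are segments inside longer transcripts. Trbv5 shares 73.2% of its 100-base windows with the long noncoding gene 5830405F06Rik, which overlaps Trbv4 and Trbv5 on the same strand and had 15.90 and 15.36 TPM. Reads of these windows were divided by the authors' estimate, so the level of Trbv5 is less certain than its count implies. The pseudogene Trbv8 shares all of its windows with AC153851.1 (0.26 and 0.20 TPM). Trbv4, which shares 67.3%, is not in the 52 genes found by identifier. Its transcript is in the transcript tables under another gene identifier, with 95.26 and 89.05 TPM from 825.88 and 833 counts, and it is left out of the sums and counts of V genes here.

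Of the V pseudogenes, Trbv24 and Trbv22 were above the lowest V gene, Trbv21, in both libraries. Trbv24 had 32.95 TPM in both libraries, from 241 and 260 counts, above both values of the V gene Trbv30 and below both values of Trbv23. Trbv22 had 2.30 and 2.46 TPM, from 13 and 15 counts. The other 11 pseudogenes were below 1 TPM in both libraries, and 7 of them had 0 counts in both, namely Trbv7, Trbv9, Trbv11, Trbv18, Trbv25, Trbv27 and Trbv28. A count of 0 allows up to 3 counts, or 0.0768 and 0.0722 CPM in the 2 libraries. Trbv8, Trbv10, Trbv12-3 and Trbv6 had between 0 and 4.71 counts. All pseudogenes together held 0.987% and 1.01% of the summed V level, nearly all of it from Trbv24.

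Trbv24 resembles the V genes in its number of exons, and its 3′ end resembles that of the V gene Trbv26. Trbv24 has 2 exons, the first not annotated as coding, and shares no 100-base window with another gene of GENCODE M21. Among the other V segments it is nearest to Trbv23 (74.8% identity), which lacks the motif, then to Trbv26 (73.8%). Only the end of Trbv26 was compared base by base, with positions counted from 1 at the 5′ end of the 36 bases shown. The end of Trbv24 differs from it by A1C, C16G and C36A, written with the base of Trbv26 first. C16G turns a tac codon into a tag stop codon, which begins 2 codons upstream of the motif. It was the only stop codon upstream of the motif in that frame of the last exon. In Trbv22 the only such stop codon began 28 codons upstream of the motif. Of the other pseudogenes with the motif, Trbv18 had 0 counts and Trbv12-3 had 0.12 and 0.23 TPM. The traits of Trbv24 are not particular to it. Trbv12-3 also has 2 exons, 1 such stop codon and no shared window, and was 82.7% identical to the V gene Trbv12-2.

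**Figure D2:**
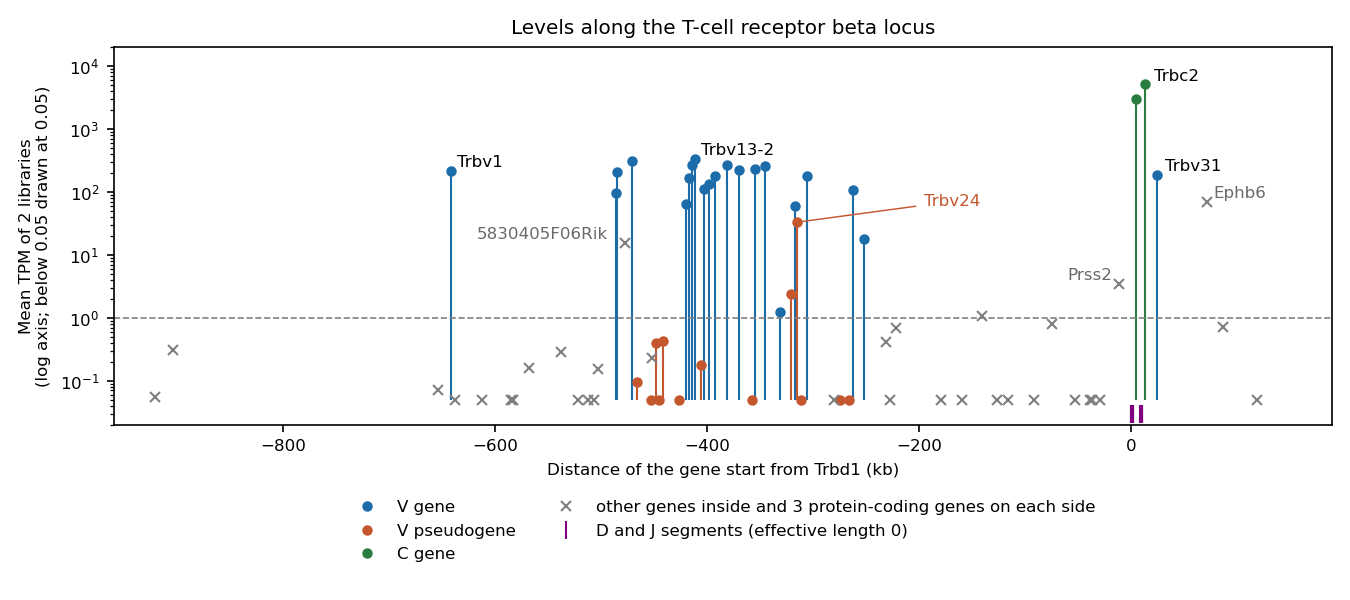
Mean TPM of both libraries (log axis; values below 0.05 are drawn at 0.05) against the distance of the gene start from Trbd1 in kb, with negative values on the side of the V array; blue stems are V genes, orange V pseudogenes, green C genes, grey crosses other genes and purple ticks the D and J segments, which have an effective length of 0. Trbv1 at -642 kb and Trbv31 at 24.5 kb have mean levels of 217 and 186 TPM, and most other genes in the locus are below the dashed line at 1 TPM.

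The relation of level to distance from the D-J-C clusters varied with the segments taken. Across the 34 measurable V segments the Spearman correlation of mean level with distance to Trbd1 was 0.0898, across the 22 detected V segments it was 0.327, across the 21 V genes it was 0.265, and across the 19 V genes of at least 50 TPM it was 0.0754. These are descriptions of segments that share 2 libraries. Across the 21 V genes the correlation of level with effective length was 0.304. Trbv1, at -642 kb from Trbd1, and Trbv31, at 24.5 kb on the far side of Trbc2, had mean levels of 217 and 186 TPM.

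The middle of the array held most of the V level, and 11 of the 21 measured V genes lie there. The stretch from Trbv12-1 to Trbv20, with the pseudogenes from Trbv6 to Trbv11 just before it, took 61.0% and 61.6% of the summed V TPM from 11 V genes, with a median of 221 TPM. Trbv2 to Trbv5 took 17.1% and 16.6% from 3 measured V genes, with a median of 210 TPM. The stretch nearest to the D-J-C clusters on that side, Trbv21 to Trbv30, took 11.0% and 10.7% from 5 V genes, with a median of 59.9 TPM. It holds the 3 lowest V genes (Trbv21, Trbv30 and Trbv23) beside Trbv26 at 180.44 and 172.27 TPM, and it also holds Trbv22 and Trbv24. These stretches were set after the values were seen and are no test.

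The C genes encode the constant part of the chain, with its membrane anchor. Trbc2 had 5055.43 and 5153.62 TPM and ranked 14 among all genes by mean level. Trbc1 had 3000.76 and 3015.87 TPM and ranked 25. Both values of Trbc2 were far above both values of Trbc1, and their ratio was 1.70 ± 0.0171 (SD, n = 2). Trbc2 was 62.9 ± 0.234% of the summed C TPM. In counts its share was 61.1% (95% Wilson interval 60.8 to 61.3) and 61.4% (61.2 to 61.6), an interval that covers counting error only.

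The Trbc1 and Trbc2 sequences are close, which bears on how well their reads can be told apart. Of the 518 coding bases compared without gaps 95.6% were identical, and the 23 differences fall mainly near the 3′ end, with 1 in exon 1 (C260A), 3 in exon 2, 15 in exon 3 and 4 in exon 4. Bases 241 to 280 of exon 1 and the whole of exon 3 are shown with differing bases in capitals.
Trbc1 exon 1: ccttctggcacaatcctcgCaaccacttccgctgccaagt
Trbc2 exon 1: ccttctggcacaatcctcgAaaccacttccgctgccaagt
Trbc1 exon 3: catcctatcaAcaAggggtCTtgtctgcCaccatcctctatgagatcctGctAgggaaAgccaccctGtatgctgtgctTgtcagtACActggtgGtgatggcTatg
Trbc2 exon 3: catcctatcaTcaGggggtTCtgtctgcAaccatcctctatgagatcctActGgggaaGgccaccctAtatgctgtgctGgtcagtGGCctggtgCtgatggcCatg
On the plus strand of GRCm38 these are chr6:41538458-41538497, chr6:41546970-41547009, chr6:41539229-41539335 and chr6:41547772-41547878. Of the 100-base windows of the main transcripts, 28.7% for Trbc1 and 30.9% for Trbc2 are shared with the other gene. Reads from those windows were divided between the genes by the authors' estimate. The summed counts of both C genes, 144795 and 158345, do not depend on how reads were divided between them. Their summed TPM, 8056 and 8169, does to a degree, since the effective lengths differ (637.25 and 593 bases).

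The ratio of V to C levels was nearly the same in both pups. The summed V level was 3641 and 3670 TPM, and V over C was 0.452 and 0.449. In counts, V segments were 17.8% (95% Wilson interval 17.7 to 18.0) and 17.7% (17.6 to 17.9) of the counts of the locus, below their share in TPM of 31.1% and 31.0%, since the C transcripts are longer. Of the members, 7 have more than 1 measurable transcript, and in 3 of these, Trbv31, Trbc1 and Trbv21, more than 1 had counts in both libraries. The transcript of 416 bases held 59.6 ± 1.95% (SD, n = 2) of the level of Trbv31 and that of 334 bases the rest, while the transcript of 737 bases held 99.6 ± 0.141% of that of Trbc1. The level of Trbv21, which rests on few counts, was divided between its transcripts in unlike shares. The transcript whose end is shown held 37.3% and 68.7% of it.

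**Figure D3:**
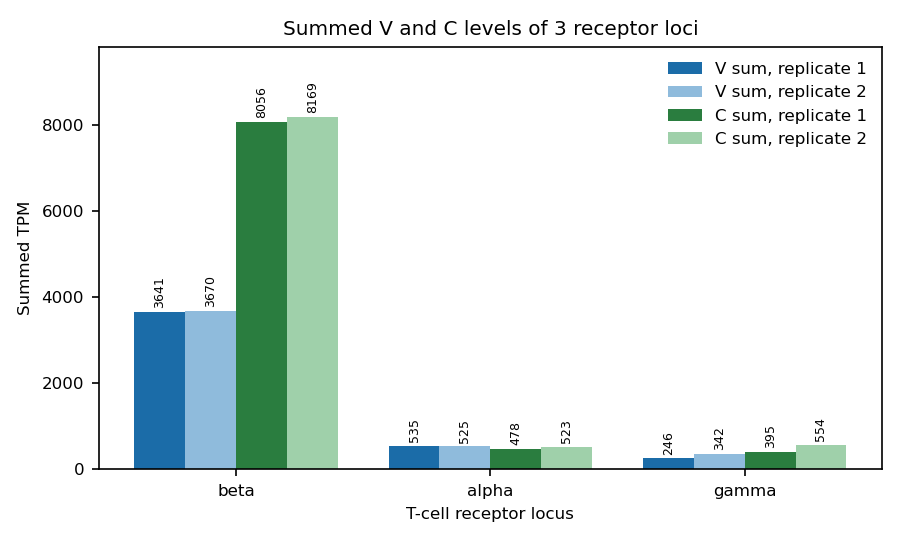
Summed TPM of V segments (blue) and C genes (green) of the beta, alpha and gamma receptor loci, with 1 bar for each library and the sum printed above it, on a linear axis from 0. The beta sums, 3641 to 3670 for V and 8056 to 8169 for C, are the highest of the 3 loci, and V over C is below 1 for beta and gamma.

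The other receptor loci were compared in the same libraries, with values only. Alpha V segments summed to 535 and 525 TPM against 478 and 523 TPM for Trac, the alpha constant gene, so that V over C was 1.12 and 1.00. For the gamma locus V over C was 0.623 and 0.618. Of the beta V genes 95.2% were detected, of the alpha V genes 72.4% (71 of 98, with a median of 3.55 TPM) and of the gamma V genes 85.7% (6 of 7, with a median of 18.4 TPM). The highest V gene took 8.57% and 9.86% of the V level in the beta locus, 5.14% and 4.68% in the alpha locus and, as Trgv2, 53.1% and 56.7% in the gamma locus. The 5 highest alpha V segments took 21.6% and 20.6%, below the 38.9% and 39.7% of the beta locus, which has fewer V segments. No constant gene of the delta locus was analysed here.

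Genes that lie between the members were mostly at or near 0. There are 28 of them, among them a row of trypsinogen genes between Trbv30 and Trbd1, and 14 had 0 counts in both libraries. The 2 that were detected are 5830405F06Rik and the trypsinogen gene Prss2, which had 2.94 and 3.91 TPM from 62 and 89 counts. Of the 14 protein-coding genes among the 28, Prss2 was the only one detected. Pancreatic acinar cells are a known source of trypsinogen, and 0 of 8 of their markers were detected, with a summed level of 1.98 and 2.28 TPM. Their part in the level of Prss2 was not tested. The 3 nearest protein-coding genes before Trbv1, Tas2r138, Mgam and Moxd2, were at 0.31 TPM or less in both libraries. After Trbv31, Ephb6, a receptor of the ephrin family, had 69.52 and 67.58 TPM, and Trpv6 (0.91 and 0.53) and Trpv5 (0.03 and 0.01 TPM), both calcium channels, were not detected.

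The partners of the beta chain were all detected. All 6 receptor partners were present, with a median of 445 TPM, below either C gene. Cd3g, a signalling chain of the complex, had 794.93 and 839.01 TPM. Trac had 477.77 and 522.99 TPM, and Ptcra, the pre-T alpha chain, had 97.06 and 99.78 TPM. Summed Trbc1 and Trbc2 were thus above the Trac level in both libraries, with no overlap. All 12 recombination genes were also detected, with a median of 25.7 TPM. Rag1 and Rag2, the recombinase that cuts at the segments, had 262.60 and 279.08 TPM and 93.52 and 117.14 TPM. Dntt, the polymerase that adds bases at the joins, had 107.78 and 117.64 TPM. All 15 genes of a list named locus control, whose action on the locus was not tested, passed the threshold. Their median was 85.8 TPM, and Tcf7 was the highest with 891.47 and 1052.56 TPM.

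**Figure D4:**
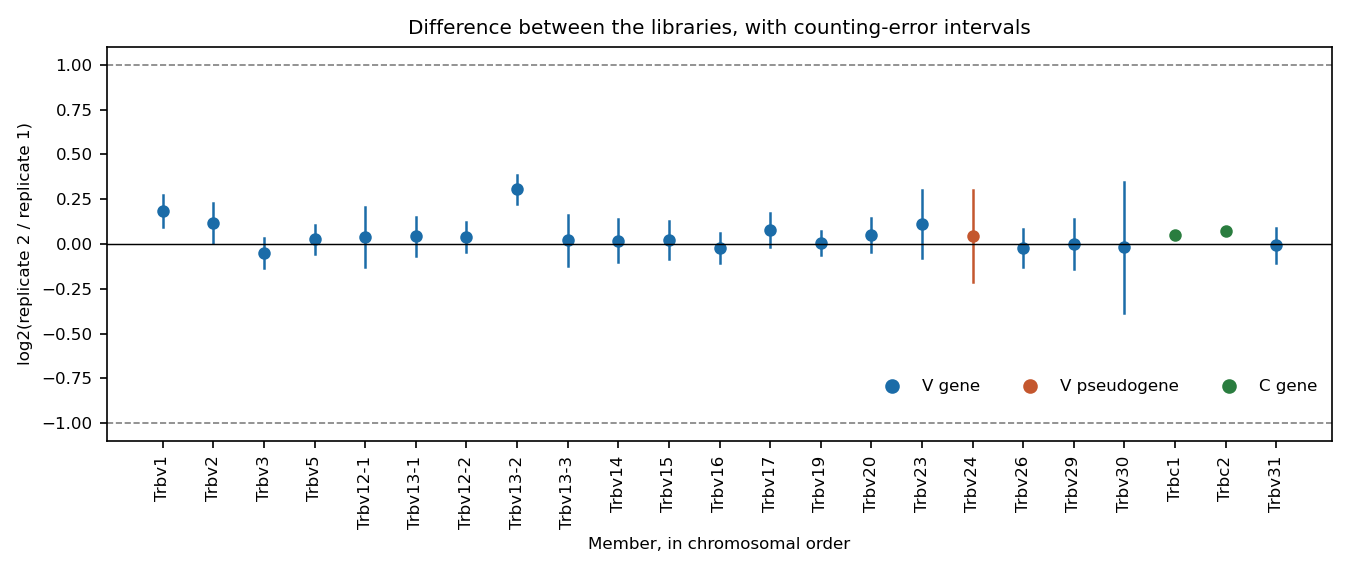
Log2 ratio of replicate 2 over replicate 1 for the 23 members whose expected counts averaged 50 or more, after edgeR's TMM scaling, in chromosomal order; bars are 95% intervals for counting error only (too short to see for the C genes), and dashed lines mark 2-fold. Trbv13-2 has the highest ratio, 0.30, and all points lie between -0.05 and 0.30.

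The libraries of the pups were compared for the 23 members whose counts averaged 50 or more. Of these 0 differed by over 2-fold, against 1.35% of 14155 genes, so the count of members is near the background. Their log2 ratios of replicate 2 over replicate 1, after edgeR's TMM scaling with a prior count of 0.5, ran from -0.05 (Trbv3) to 0.30 (Trbv13-2). The median was 0.04 for the members, 0.03 for V segments and 0.02 for all genes. The counting interval excluded equal levels for 5 of the 23 members, against 49.9% of all genes. These were Trbv13-2, which was 1.23-fold higher in replicate 2 (log2 0.30, 95% interval 0.22 to 0.39), Trbv1 (0.18), Trbv2 (0.12), Trbc2 (0.07) and Trbc1 (0.05). With scaling by total counts Trbv2 left this set and the other 4 stayed in it. With spike-in scaling the interval lay above equal levels for all 23 members. The share of all genes was counted with TMM only, so these sets have no background beside them. The interval covers counting error only, and with 1 library per pup the difference has no replicate check.

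The direction of these small ratios depended on the scaling. With TMM, 18 of 23 members were higher in replicate 2, against 53.9% of all genes. With total counts it was 12, when the median of all genes was -0.00761. On the ratio of deposited TPM 8 were higher, 14 lower and Trbv24 equal, when that median was -0.0303. The share of all genes that were higher was counted with TMM only. Scaled to the spike-ins, which held 659 and 427 counts, all 23 were higher, with a median of 0.72 for V segments, while the median of all genes was then 0.71. Under each of these scalings the median of V segments was 0.01 above that of all genes.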

How the data were processed

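For each library the authors deposited expected counts, TPM and FPKM per gene and transcript, and the percent of a gene's level held by each transcript. Expected counts were deposited without normalization. Deposited TPM is relative to transcript length and to a library's sum, and deposited FPKM to transcript length and library size. The build is mm10, per the labels, and the annotation is GENCODE M4, per the deposited read-me texts. Aligner, quantifier and strandedness: not given in the sources used here. Gene tables hold 43346 genes, and spike-in and numbered rows stayed out of library sizes. The libraries held 39045680 and 41576341 expected counts.

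Symbols, biotypes, coordinates and sequences are from GENCODE M21 (GRCm38), matched by identifier without version. All 62 member transcripts were matched by identifier with the same length. The replicate numbers come from the labels. Replicates are separate pups of 1 litter, so the spread holds biological and technical parts together. Levels are TPM, with the SD over n = 2. Detected means at least 1 TPM in both libraries. Log2 ratios used counts scaled with edgeR 4.0.16 (TMM, R 4.3.3), a prior count of 0.5 and a mean count of at least 50. Their intervals are exact binomial intervals conditional on the sum, at 95%. Like the Wilson intervals and the limit of 3 counts, they cover counting error only, since there were no molecular identifiers to mark independent molecules. Only the log2 ratios and their intervals were tested on simulated data, which held counting error alone. Correlations are Spearman's, on log2(TPM + 0.5). Motifs and windows of 100 bases were searched with Python 3.11.15, and last exons were aligned with Biopython 1.88.

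The text could name any member, every gene inside the locus, the 3 nearest protein-coding genes on each side and members of the named lists. The members and lists were chosen with earlier results of these data known. One marker of the B-lineage list is not reported here. Alternatives changed the threshold, the unit, the scaling (DESeq2 1.42.0 size factors, spike-ins, total counts, TPM) and the filters, and used each library alone. No test between groups was possible.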

Additional observations from a re-analysis of the deposited data

Results flagged for a closer look

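Trbv4 was outside the gene-level comparison because its M21 gene identifier is not among those of the gene tables, but its transcript carries counts under another identifier: 825.88 expected counts in the first library and 833 in the second, where a count of 0 allows up to 3. At 95.26 and 89.05 TPM it would stand with Trbv2 in the order of V genes, with overlapping values.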

How the results depend on the processing

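Of 53 alternative values of 9 results, 40 moved by no more than a set limit and 13 moved further. For counts of members the limit was 1.5 times. For the median log2 ratio of V segments it was the counting error of the summed V counts, 0.0221. For the other results it was the spread between the libraries. Some of the 40 could not move: with 2 libraries, each alone lies within the SD of their mean. Within a library FPKM is proportional to TPM, and a minimum effective length of 100 removed no V segment. The detected pseudogenes fell from 2 to 1 at a threshold of 5 TPM, which leaves Trbv24. The V share of the locus, 17.8% of counts, was 31.1% in TPM and 18.2% with Trbv4 added. The Trbc2 share of the C genes was 61.2% in counts. The share of the 5 highest V segments was 40.4% in counts, 38.3% with Trbv4 added and 40.7% without Trbv5. The mean over libraries of the correlation of V level with distance was 0.0835, 0.108 in counts, 0.123 without Trbv31 and 0.342 over detected V segments. The median log2 ratio of V segments, 0.03 with TMM, was 0.72 with spike-in scaling, -0.0199 as a TPM ratio and -0.000907 with total counts. Each library alone gave 24 to 25 detected members, a V gene median of 174.19 to 180.44 TPM and a Trbc2 share of 62.8 to 63.1%. The treatments of Trbv4 and Trbv5 were chosen after seeing the data. No paired analysis was possible because there is 1 group only. With 2 littermates the spread between libraries is itself uncertain, and segments shorter than the read length could not be measured at any depth.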
